A study of Mus musculus with 2 samples.

Results

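The clustered histone genes were followed in poly-A primed single-cell libraries of tumor-infiltrating natural killer (NK) cells. They were taken as every row of the deposited tables whose symbol starts with Hist1h, Hist2h, Hist3h or Hist4h, which gave 69 of the 27998 gene rows. By symbol, 6 encode the linker histone H1, and the core histones H2A, H2B, H3 and H4 account for 19, 19, 12 and 13. In GENCODE M21 (GRCm38), 68 had a gene record, of which 55 lie on chromosome 13, 10 on chromosome 3, 2 on chromosome 11 and 1 on chromosome 6. The row Hist2h2bb.1, a repeat of a symbol, had no record.

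The study compared NK cells of mice deficient for Hif1a in NK cells, called KO here, with those of wild-type mice, called WT. Hif1a encodes the oxygen-regulated subunit of a hypoxia-inducible transcription factor. Both groups of mice carried subcutaneous RMA-S tumors, from a mouse lymphoma line, for 2 weeks. CD3ε-negative, NK1.1-positive cells were sorted from the tumors and made into 10x Chromium 3′ libraries, 1 for each genotype. The labels do not state what drives the deletion, which part of Hif1a is removed, the age of the mice or how many were used. With 1 library for each genotype no difference has a replicate check, and no p-value is given.

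Histones package DNA: pairs of H2A, H2B, H3 and H4 form the core of the nucleosome, and H1 binds the DNA that enters and leaves it. Genes of the histone clusters are transcribed mainly in S phase, when new DNA needs new histones. Most of their mRNAs end just after a conserved stem-loop and carry no poly-A tail, so that a poly-A primed library may count only part of them. Some of the genes also make a longer, polyadenylated mRNA, including in cells that do not divide.

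The sequences below are stem-loop sites of members whose patterns are described, from GENCODE M21 transcripts (GRCm38), on the coding strand, 5′ to 3′. Capitals mark the 16-base loop element, and they show that genes caught in opposite patterns share the same element.
Hist1h2ap: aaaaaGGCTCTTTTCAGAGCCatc
Hist1h2ae: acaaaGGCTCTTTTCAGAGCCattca
Hist1h4i: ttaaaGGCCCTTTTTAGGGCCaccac
Hist1h1c: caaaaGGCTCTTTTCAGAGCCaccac
Hist1h1e: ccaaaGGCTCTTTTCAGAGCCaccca
Hist3h2a: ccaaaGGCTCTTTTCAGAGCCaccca
Hist1h4m: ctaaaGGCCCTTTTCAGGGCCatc
Hist1h2ap, Hist1h2ae, Hist1h1c, Hist1h1e and Hist3h2a shared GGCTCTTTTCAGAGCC, which 26 members held. The form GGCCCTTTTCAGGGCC occurred in 7 members, all of the H4 family, Hist1h4m among them. The annotated ends differed, also between genes of like pattern such as Hist1h2ap and Hist1h2ae. The transcript of Hist1h2ap ended 3 bases after the element and that of Hist1h4m likewise 3. Those of Hist1h2ae, Hist1h4i, Hist1h1c, Hist1h1e and Hist3h2a ran on for 151, 330, 840, 1153 and 1643 bases.

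RefSeq promoters (GRCm38.p6) are shown for the members with the most UMIs, which differed in where they were found: Hist1h2ap at chr13:21833426-21833725 on the minus strand and Hist1h1c at chr13:23738557-23738856 on the plus strand. Each sequence runs from 250 bases before to 50 after the start, on the gene's own strand, with CCAAT or its reverse complement ATTGG in capitals.
Hist1h2ap: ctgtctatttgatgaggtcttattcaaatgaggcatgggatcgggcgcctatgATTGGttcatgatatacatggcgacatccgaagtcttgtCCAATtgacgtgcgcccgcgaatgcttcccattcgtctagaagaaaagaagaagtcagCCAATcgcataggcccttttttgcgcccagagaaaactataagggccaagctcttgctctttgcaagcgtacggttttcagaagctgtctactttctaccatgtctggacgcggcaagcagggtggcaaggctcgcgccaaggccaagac
Hist1h1c: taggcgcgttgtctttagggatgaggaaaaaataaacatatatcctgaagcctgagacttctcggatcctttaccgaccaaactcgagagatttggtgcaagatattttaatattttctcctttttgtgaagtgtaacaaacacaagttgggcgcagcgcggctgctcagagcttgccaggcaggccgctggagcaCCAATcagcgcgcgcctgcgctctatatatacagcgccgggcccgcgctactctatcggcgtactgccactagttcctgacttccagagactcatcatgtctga
Promoters were matched for 62 members. CCAAT, searched on both strands, was present in 53 of them (85.5%), against 37.9% of the 27025 RefSeq promoters of that length. It was in every matched promoter of H1, H2A, H2B and H3 members and in 3 of the 12 of H4. TATAAA was in 56.5% of member promoters and 14.2% of all. The octamer ATTTGCAT was in 13 of the 62 member promoters, 7 of H2A and 6 of H2B, against 1.75% of all. H2A and H2B genes that face each other share a promoter stretch, so that the 13 promoters with the octamer lie in 10 separate stretches, the 53 with CCAAT in 43 and the 35 with TATAAA in 29. A match is a description of the letters and not a bound site.

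A unique molecular identifier (UMI) marks each captured molecule. Cells were kept if they had 500 or more genes and no more than 10% of UMIs from mitochondrial genes, 3067 KO and 3555 WT, with 13222535 and 19462712 UMIs. The libraries shared 19 cell barcodes, all kept. Hif1a itself stood at 60.5 CPM (UMIs per 1e+06 UMIs) in the KO library and 58.2 in WT, which checks nothing, since 3′ tags may come from outside the deletion. Of the NK markers, 10 of 10 were detected, with Ncr1 in 69.8% of KO and 74.3% of WT cells. Summed T-cell markers (6 genes measured) were at 89.5 CPM in the KO library and 155 in WT, where Cd4 and Cd8a were at 0. Erythroid markers (5 genes) summed to 296 and 858 CPM, while Hba-a1 was found in more KO cells (19.0%) than WT cells (9.001%). Stromal markers (4 genes) summed to 61.9 and 55.6, with Col1a1 and Dcn at 0 in both. The sums thus came from Col1a2 and Pecam1 only, and no kept cell held 2 or more of the 4 genes.

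The clustered histones were a small part of both libraries, and a few genes made up most of it. Members held 7583 KO UMIs, 0.0573% of the library, and 17536 WT UMIs, 0.0901%. At least 1 UMI was found for 64 members in the KO library and 66 in WT, and 47 reached 50 UMIs over both and are called caught. Of all 27998 gene rows, 10479 reached that minimum over both libraries. The 12 most abundant held 69.9% of the 25119 UMIs. Hist1h1c, a linker histone gene, led the KO library with 1506 UMIs, and Hist1h2ap, an H2A gene, led the WT library with 4123.

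Caught genes came from every family, with 5 of 6 H1, 13 of 19 H2A, 13 of 19 H2B, 6 of 12 H3 and 10 of 13 H4 members. Of the 22 members under 50 UMIs, 19 had at least 1: Hist1h2ao, Hist1h4j, Hist1h2bk, Hist2h2bb, Hist1h2af, Hist1h4f, Hist1h2ad, Hist1h4k, Hist1h3d, Hist1h3g, Hist1h3h, Hist2h2aa2, Hist1h2bf, Hist1h3b, Hist2h3c1, Hist2h3c2, Hist1h2ah, Hist1h2aa and Hist1h2ba. They ranged from 48 UMIs for Hist1h2ao to 3 for Hist1h2ba. Hist1h1t, a linker histone gene known from the testis, Hist1h2bq and Hist1h2br had 0 in both. A count of 0 allows up to 0.227 CPM in the KO library and 0.154 in WT.

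Cells were classed by how many of 48 cell-cycle genes (23 of S and 25 of G2/M phase, no histone among them) were detected after each cell had been thinned to 2500 UMIs. Cells with at least 5 are called cycling and the others non-cycling, so that a class is a range of a count and not a cell type. The KO library had 51 cycling cells, 1.66% of those kept (exact 95% interval 1.24% to 2.18%), and 2598 non-cycling cells. The WT library had 191, or 5.37% (4.65% to 6.17%), and 3272. Another 418 KO and 92 WT cells were under 2500 UMIs and stayed unclassed. Near the line, 72 KO cells had 4 of the genes and 18 had 5, against 111 and 36 WT cells. Cycling cells were deeper, with medians of 9510 and 11213 UMIs against 4027 and 4420 in non-cycling cells. Levels below are in CPM, that is UMIs per 1e+06 UMIs of the class. All intervals cover counting error only. They understate the error of genes whose UMIs are gathered in a handful of cells. Because tags at 3′ ends are counted, a level is not scaled to gene length. How each counted molecule was primed was not tested.

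Member UMIs were more abundant in cycling cells of both libraries. Their sum was 498 CPM in KO non-cycling and 1802 in KO cycling cells, a log2 ratio of 1.86 (95% interval 1.76 to 1.95). In the WT library it was 625 and 2899, a log2 ratio of 2.21 (2.17 to 2.26). Cycling cells held 12.9% of KO and 38.9% of WT member UMIs, but 4.10% and 12.1% of all UMIs. The KO value rested on few cells: without the 10 cells of each class with the most member UMIs its log2 ratio was 0.47, against 1.93 in the WT library. These cells were picked by the value measured, which favors a fall. They were also a larger share of the 51 KO than of the 191 WT cycling cells, so the libraries are not compared alike. Without the 3% of cells with the most UMIs, a guard against doublets, the ratios were 0.83 and 2.35.

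The families differed in this respect. H2A had the highest log2 ratios, 3.47 in the KO library (3.33 to 3.61) and 3.98 in the WT library (3.904 to 4.05), or 2.35 and 2.59 without Hist1h2ap. H2B had log2 ratios of 1.76 and 2.05, H3 of 1.61 and 1.48, and H4 of 0.60 and 0.64. H1 had 0.26 (-0.02 to 0.54) and 0.02 (-0.10 to 0.14), so its sum did not differ between the classes beyond counting error. T-cell marker sums were also higher in cycling cells, 168 against 87.4 CPM in the KO library and 192 against 151 in WT. Without cells carrying UMIs of at least 2 of Cd3d, Cd3e and Cd3g, the log2 ratio of all members was 1.87 in the KO library and 2.30 in WT.

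Among members with at least 50 UMIs over the classes of a library, 14 of 29 in the KO library were at least 2-fold higher in cycling cells (1 CPM added to both sides), where 6.67% of the 8948 genes measured alike were. In the WT library this held for 23 of 42, against 6.19% of 9629 genes. The KO count was 7 of 27 without the 3% of cells with the most UMIs, where 9.6% of all genes were, and 7 of 29 with cycling set at 3 genes, where 1.48% were. The genes used for classing were left out of all genes here. The median log2 ratio of these members was 0.83 and 1.33, and that of all genes -0.10 and -0.02. At least 2-fold lower were 2 KO members, Hist3h2a and Hist3h2ba (all genes 10.7%), and 0 WT members (3.49%). Members sparse in non-cycling cells reached the minimum through cycling cells, so these counts describe the members measured and not the whole family.

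Among linker histones, Hist1h1c and Hist1h1b had opposite patterns. Hist1h1c stood at 110 CPM in KO non-cycling, 62.8 in KO cycling, 142 in WT non-cycling and 84.1 in WT cycling cells. It was lower in cycling cells of both libraries, with log2 ratios of -0.81 (-1.35 to -0.32) and -0.75 (-0.97 to -0.54). Counting error reached 0 in the KO library without the 3% of cells with the most UMIs (-0.20, -1.04 to 0.53) and in the WT library with cycling cells set by Mki67 or Top2a (-0.16, -0.35 to 0.02). Hist1h1b stood at 3.72, 70.2, 7.52 and 68.8 in the same order, with log2 ratios of 4.24 (3.57 to 4.90) and 3.19 (2.85 to 3.54). It was the 1 H1 member measured past 2-fold in either library. Hist1h1e stood at 44.9, 40.6, 84.9 and 73.5, and Hist1h1d at 12.4, 18.5, 21.3 and 27.2, with intervals of all 4 class ratios that include 0. Hist1h1a had 46 KO and 118 WT UMIs and log2 ratios of 2.62 and 0.96, the KO value from 9 UMIs in cycling cells.

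Hist1h2ap separated the classes most among the 12 leading members. It stood at 16.3 CPM in KO non-cycling and 676 in KO cycling cells, and at 37.7 and 1478 in the WT library. The log2 ratios were 5.37 (5.12 to 5.63) and 5.29 (5.17 to 5.42). Of its UMIs, 63.1% in the KO library and 84.4% in WT lay in cycling cells. They were gathered in few cells: 10 cells held 59.0% in the KO library and 24.9% in WT, and the top cells had 63 and 251. Without the 10 cells of each class with the most member UMIs the log2 ratios of Hist1h2ap were 2.03 and 4.998, and without the 3% of cells with the most UMIs 2.98 and 5.54. With cycling cells set by Mki67 or Top2a they were 4.42 and 3.95, the latter the lowest WT value over the alternatives. The 10 cells left out were a larger share of the 51 KO than of the 191 WT cycling cells. Hist1h2ae and Hist1h2ak, H2A genes too, followed Hist1h2ap. Hist1h2ae stood at 5.75 and 118 in the KO library and 10.0 and 162 in WT. Hist1h2ak stood at 5.16 and 111, and at 8.82 and 118. For both genes the cycling interval lay far above the non-cycling one in each library.

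Other H2A members mostly went the same way, at lower counts. In the KO library, Hist1h2ac, Hist1h2ai and Hist2h2aa1 were also past 2-fold. In the WT library it was Hist1h2ab, Hist1h2ac, Hist1h2ag, Hist1h2ai, Hist1h2al, Hist1h2an and Hist2h2ac, with log2 ratios from 1.29 for Hist2h2ac to 4.67 for Hist1h2ab. Hist2h2ac had a log2 ratio of -0.08 in the KO library (-1.56 to 1.07). Hist3h2a, outside the large cluster on chromosome 13, differed: it stood at 33.4 CPM in KO non-cycling and 9.23 in KO cycling cells, and at 25.4 and 22.9 in the WT library. Its KO cycling value came from 5 UMIs. Hist2h2ab had 27 KO and 24 WT UMIs and log2 ratios of -0.07 and 0.04.

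**Figure D1:**
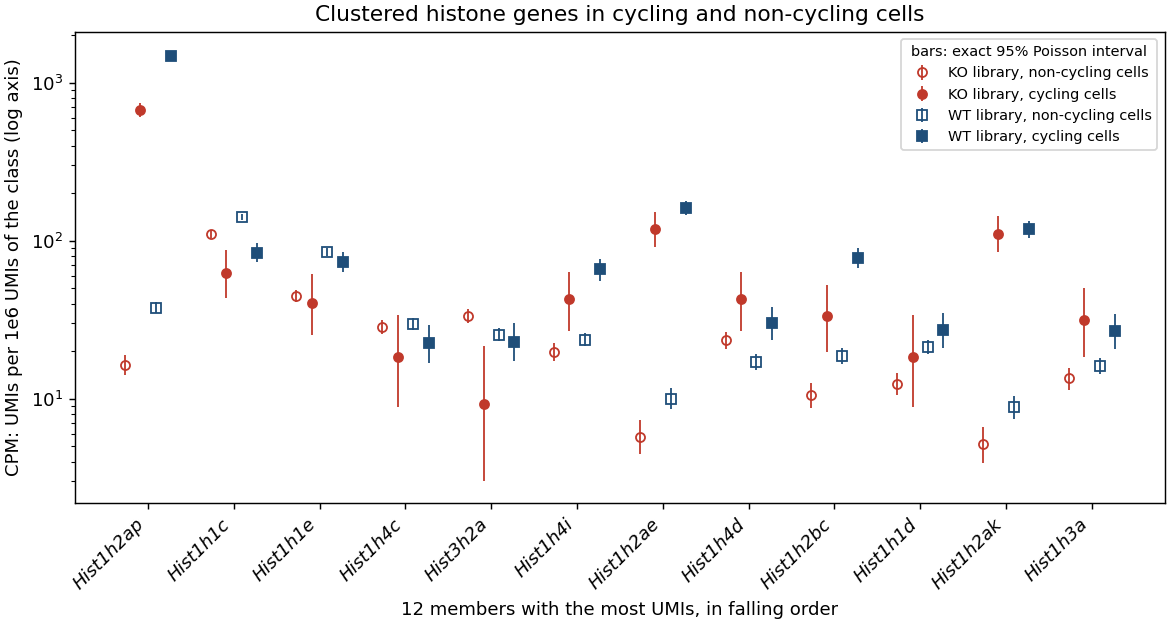
CPM of the class (y axis, logarithmic) for the 12 members with the most UMIs, in falling order along the x axis. Open symbols are non-cycling and filled symbols cycling cells of the KO (circles) and WT (squares) library, with exact 95% Poisson intervals. Hist1h2ap, Hist1h2ae and Hist1h2ak lie far higher in cycling cells, and Hist1h1c lies lower, at 62.8 against 110 in the KO library and 84.1 against 142 in WT.

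Among H2B genes, Hist1h2bc was at 10.5 CPM in KO non-cycling and 33.2 in KO cycling cells, and at 18.7 and 78.2 in the WT library. The log2 ratios were 1.66 (0.86 to 2.38) and 2.07 (1.80 to 2.33). Hist1h2bj had 2.79 in both libraries, and Hist1h2bg had 2.23 and 1.58. Past 2-fold in the WT library were also Hist1h2bb, Hist1h2bh, Hist1h2bm and Hist1h2bn, with log2 ratios of 3.12, 2.09, 3.67 and 1.96. Hist2h2be and Hist2h2bb.1 had WT log2 ratios of 1.19 and 0.84. Hist1h2be had 1.07 in the WT library and -0.82 (-3.89 to 1.08) in the KO library, the latter from 2 UMIs in cycling cells. Hist1h2bl and Hist1h2bp, with 59 and 51 UMIs over both libraries, had WT log2 ratios of 2.09 and 2.70. Hist3h2ba had -1.16 in the KO library, from 3 UMIs in cycling cells, and 0.45 (-0.06 to 0.92) in the WT library.

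H4 had the lowest log2 ratios of the core families, and H3 genes were spread widely. Hist1h3a stood at 13.4 CPM in KO non-cycling and 31.4 in KO cycling cells, and at 16.2 and 26.8 in the WT library. Hist1h3i had log2 ratios of 1.84 and 1.81 and Hist1h3e of 0.91 and 1.08. Hist1h3c and Hist1h3f had WT log2 ratios of 3.35 and 1.99, and Hist2h3b had -0.70 and -0.41. The Hist2h3b ratios came from 73 KO and 84 WT UMIs in classed cells, and 3.92% of KO cycling cells held a UMI before thinning. Among H4 genes, Hist1h4i was at 19.8 and 42.5 in the KO library and 23.7 and 65.9 in WT, log2 ratios of 1.10 (0.42 to 1.72) and 1.48 (1.20 to 1.75). Hist1h4d was at 23.4 and 42.5, and at 17.2 and 30.2. Hist1h4c was at 28.5 and 18.5, and at 29.6 and 22.5, with intervals of the log2 ratios of -1.70 to 0.27 and -0.83 to 0.02. Hist1h4b had 1.44 and 0.90, and Hist4h4 had 0.64 and -0.86, opposite in sign. No member had ratios of opposite sign that were beyond counting error in both libraries. Hist1h4n, Hist1h4h and Hist2h4 had log2 ratios between -0.06 and 0.47 in the libraries, and Hist1h4a had 0.86 and 1.59. The Hist1h4a ratios came from 26 KO and 27 WT UMIs in classed cells.

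The level of Hist1h2ap did not climb step by step with the number of cell-cycle genes detected. In cells with 0 to 4 of them it lay between 12.6 and 26.7 CPM in the KO library and between 33.4 and 47.0 in WT. With 5 to 7 it was 365 and 449, and with 8 or more 946 and 2006 (23 KO and 112 WT cells). The other members together were at 438 to 520.3 in KO and 536 to 598 in WT cells with 0 to 4. With 8 or more they were at 1485 and 1800. Hist1h1c was at 99.3 in KO and 150 in WT cells with 0 of the genes, and at 62.2 and 93.9 in those with 8 or more.

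**Figure D2:**
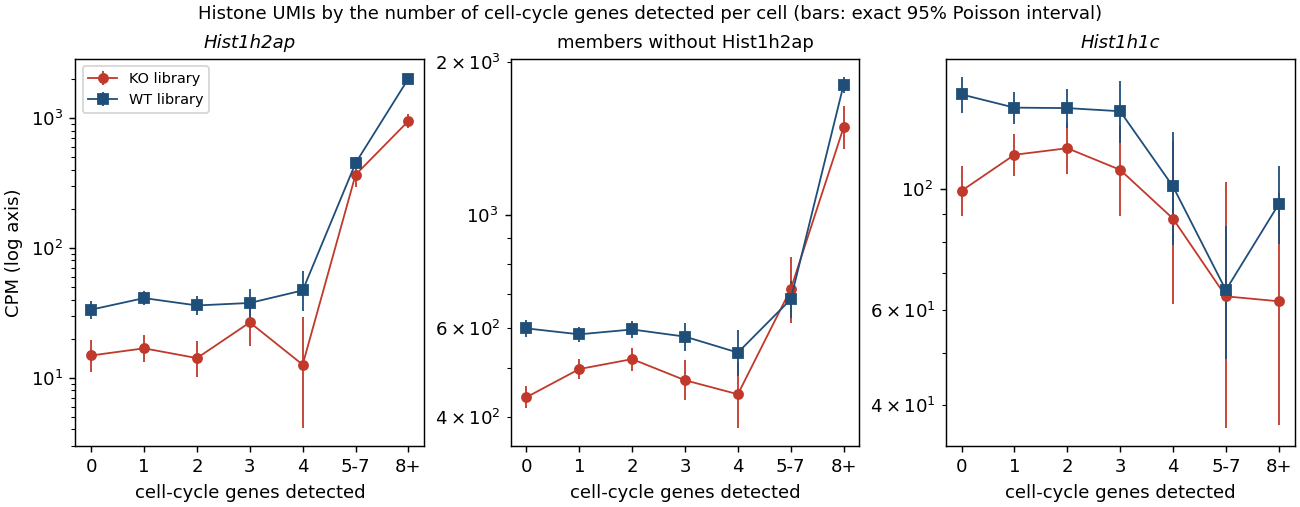
CPM (y axes, logarithmic) of Hist1h2ap, of the other members together and of Hist1h1c, by the number of cell-cycle genes detected in a cell thinned to 2500 UMIs (x axes), for the KO (circles) and WT (squares) library, with exact 95% Poisson intervals. Hist1h2ap lies between 12.6 and 47.0 in cells with 0 to 4 genes and reaches 946 and 2006 in those with 8 or more.

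Histone UMIs were also found in most non-cycling cells. After thinning to 2500 UMIs, 64.9% of KO non-cycling cells (exact 95% interval 63.1% to 66.8%) and 66.7% of KO cycling cells (52.1% to 79.2%) had a UMI of at least 1 member. In the WT library the shares were 73.2% (71.6% to 74.7%) and 81.7% (75.4% to 86.9%). Before thinning they were 80.8%, 86.3%, 88.3% and 96.3%. High content was rarer: at least 10 member UMIs were found in 0.231% of KO non-cycling and 9.80% of KO cycling cells, and in 0.428% and 30.9% in the WT library. A Hist1h2ap UMI was present in 4.23% of KO non-cycling and 29.4% of KO cycling cells, and in 8.40% and 47.1% of WT cells (unthinned 6.66%, 35.3%, 14.2% and 64.9%). Hist1h1c was present in 21.1%, 11.8%, 28.5% and 20.4% after thinning, in the same order. Unthinned, the Hist1h1c order was the other way, with 30.1%, 37.3%, 42.0% and 54.5%. Free RNA can put UMIs into cells that do not express a gene, and its part in the non-cycling shares was not tested.

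Cycling cells were further divided by whether more S or more G2/M genes were detected. The WT library had 143 S-leaning and 41 G2/M-leaning cells, and the KO library 44 and 7. Members together were lower in S-leaning cells, with a log2 ratio of -0.94 (-1.01 to -0.87) in the WT and -1.005 (-1.21 to -0.80) in the KO library. In the KO library the sign turned when the 3% of cells with the most UMIs were left out (3.23) and when cycling cells were set by Mki67 or Top2a (0.41). The WT ratio was -0.044 when set by Mki67 or Top2a. Hist1h2ap was at 1206 CPM in WT S-leaning and 2204 in WT G2/M-leaning cells, and Hist1h2bc at 37.2 and 203. Of 21 WT members measured, 10 were at least 2-fold lower in S-leaning cells (all genes 2.84%) and 0 higher (1.90%). Of 3 KO members measured, Hist1h2ae and Hist1h2ak were 2-fold lower (all genes 4.04%) and 0 were higher (4.85%).

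The comparison of genotypes asks how loss of Hif1a in NK cells relates to expression in the tumor. Over all kept cells, members were lower in the KO library, at 573 against 901 CPM. The log2 ratio of KO over WT was -0.65 (-0.69 to -0.61), and -0.38 without Hist1h2ap. Cycling cells were 1.66% of KO and 5.37% of WT cells. Within non-cycling cells the log2 ratio was -0.33 (-0.37 to -0.28), and within cycling cells -0.69 (-0.78 to -0.59). The ratio within cycling cells moved to -1.80 without the 10 cells of each class with the most member UMIs and to -0.34 without Hist1h2ap. Leaving out 10 cells takes a larger share of the 51 KO than of the 191 WT cycling cells, which favors a lower KO value.

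Of the 47 caught members, 9 were lower by 2-fold or more in KO cells (all genes 1.26%): Hist1h1b, Hist1h2ab, Hist1h2ac, Hist1h2ae, Hist1h2ak, Hist1h2ap, Hist1h2bc, Hist1h2bj and Hist1h3c. In non-cycling cells 1 of 36 was, Hist1h2ap (all genes 0.649%), and 0 were 2-fold higher (1.61%). Its log2 ratio was -2.27 over all kept cells and -1.21 (-1.45 to -0.98) in non-cycling cells, where it ranged over the alternatives from -2.14 with cycling cells set by Mki67 or Top2a to -0.84 with thinning to 1500 UMIs. That last value is under 2-fold and ends the call. In cycling cells 5 of 24 were 2-fold lower, Hist1h2ai, Hist1h2ap, Hist1h2bc, Hist2h2ac and Hist3h2a (all genes 2.28%), and 0 were higher (1.18%). In all these counts the minimum of 50 UMIs is on the sum of both libraries. Hist1h3c, with 13 KO and 63 WT UMIs in classed cells, and Hist1h2ab, with 19 and 91, reached it mainly through WT. Calls in cycling cells rested on few KO cells. Before thinning, Hist1h2ai had a UMI in 13.7% of the 51 KO cycling cells, and Hist2h2ac and Hist3h2a in 9.80% each. The counts thus describe the members measured and not the whole family. Hist1h2ac, Hist1h1b, Hist1h1a and Hist1h3c had log2 ratios of -1.04, -1.02, -1.01 and -2.19 in non-cycling cells, from few UMIs. They were under 2-fold with 1 CPM added, or under 50 UMIs.

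In non-cycling cells the H1, H2A, H2B and H3 sums were lower in the KO library and the H4 sum was higher. The log2 ratio was -0.59 (-0.66 to -0.51) for H1, -0.38 (-0.48 to -0.27) for H2A, -0.49 (-0.63 to -0.35) for H2B and -0.20 (-0.38 to -0.02) for H3. Much of the H2A difference came from Hist1h2ap, without which the H2A ratio was -0.13 (-0.25 to -0.02). For H4 it was 0.19 (0.09 to 0.28), and of the 8 H4 members measured there 6 had a ratio above 0. Hist1h4b had 0.73 (0.34 to 1.12) and Hist1h4d 0.45 (0.20 to 0.69), while Hist1h4i had -0.26 (-0.50 to -0.02). Over all genes measured the median log2 ratio was 0.05 in these cells. Hist1h1e had -0.92 (-1.07 to -0.78), Hist1h1d -0.78 (-1.07 to -0.50) and Hist1h1c -0.36 (-0.46 to -0.26). Myeloid marker sums in non-cycling cells were 176 CPM in the KO library and 126 in WT, and erythroid sums were 294 and 973. Without cells at 1% or more hemoglobin UMIs the H4 ratio was 0.19 and the H1 ratio -0.59. The part of the myeloid genes in the family ratios was not tested.

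**Figure D3:**
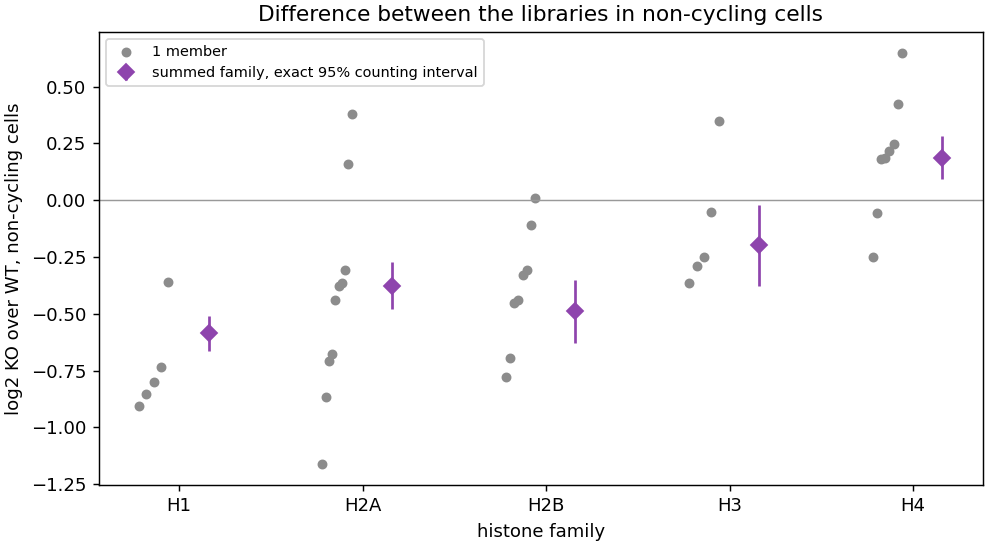
Log2 ratio of KO over WT in non-cycling cells (y axis) by histone family (x axis). Grey points are members with at least 50 UMIs over the non-cycling cells of both libraries, with 1 CPM added, and diamonds are the summed family with its exact 95% counting interval. The H1 diamond is at -0.59 and the H4 diamond at 0.19.

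A single member was at least 2-fold higher in KO cells over all kept cells (all genes 1.71%). Hist1h4m had 47 UMIs in 44 KO cells and 4 UMIs in 4 WT cells, a log2 ratio of 4.11 (2.66 to 6.05). Of its KO UMIs, 38 lay in non-cycling cells. The 50-base stretches near its 3′ end were shared with Hist1h4n at 90.3%, and 9.69% occurred in no other member. Hist1h4n had 211 KO and 252 WT UMIs, so that how tags were assigned between these genes bears on the value and was not tested.

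Shared sequence limits how far single members can be told apart. Over the last 400 bases, 0% of the 50-base stretches of the Hist1h2ap transcript were its own. All were also in Hist1h2ao, which had 48 UMIs, and 18 members shared some. Those of Hist1h2bq, at 0 UMIs, were all in Hist1h2br. For caught members the median share found in no other member was 46.9%, and for the others 37.9%. Hist1h2ae had 55.8% and Hist1h2ak 47.7%, while Hist1h1c, Hist1h4c, Hist3h2a, Hist1h4i, Hist1h4d, Hist1h2bc and Hist1h1d had 100%. Those of Hist1h1e were all in a transcript of Hist1h2be, which overlaps it on the same strand. Every H2A member was overlapped by an annotated gene on the other strand, and the labels do not say whether strand was used in counting.

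Members were then set by their annotated ends. The histone stem-loop consensus, searched exactly and on the transcript strand, was found in 46 of 68 members (67.6%). It was in 0.288% of the longest transcripts of the 21901 protein-coding genes, or 63 genes. Members were not left out of these genes, so the share is not one of other genes alone. For the 63 members with 1 annotated transcript that one was used, and otherwise the longest with the element. In 23 of the 46 members with the element the transcript ended within 100 bases of it, and 15 of these were caught. In 23 it ran further, by 108 to 4884 bases, and 18 were caught. Of the 22 without the element, 13 had no annotated 3′ untranslated region at all, and 13 were caught. Thus no class of ends was missing from the caught members.

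The ratio of cycling over non-cycling cells was then read by the annotated end. Among members ending near the loop, 5 of 8 measured in the KO library and 8 of 13 in WT were at least 2-fold higher in cycling cells (all genes 6.67% and 6.19%). Here too, members sparse in non-cycling cells reached the minimum of 50 UMIs through cycling cells. The figures were 4 of 15 and 7 of 17 for those running past it, and 5 of 6 and 8 of 11 for those without it. The median log2 ratios were 1.26 (KO) and 2.66 (WT) near the loop, 0.54 and 0.78 past it, and 1.61 and 2.01 without it. Each group spread widely: among members running past the loop, Hist1h2ae had 4.14 in the KO library and Hist3h2a -1.75 (1 CPM added). A poly-A signal, AATAAA or ATTAAA in the last 100 bases, was present in 17 members (25.0%), 12 of them caught, and in 74.7% of all protein-coding genes. Of the 51 members without the signal, 34 were caught. Of the members with it, 2 of 9 in the KO library and 3 of 11 in WT were 2-fold higher, against 12 of 20 and 20 of 30 without it. Some members counted without the loop and the signal, such as Hist1h2ak, Hist1h1b, Hist1h2ai and Hist1h3i, have no annotated 3′ untranslated region. For them, lack of either cannot be told apart from an annotation that stops short. Members share sequence and are not independent, so these are descriptions, and the authors' annotation may end transcripts elsewhere.

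**Figure D4:**
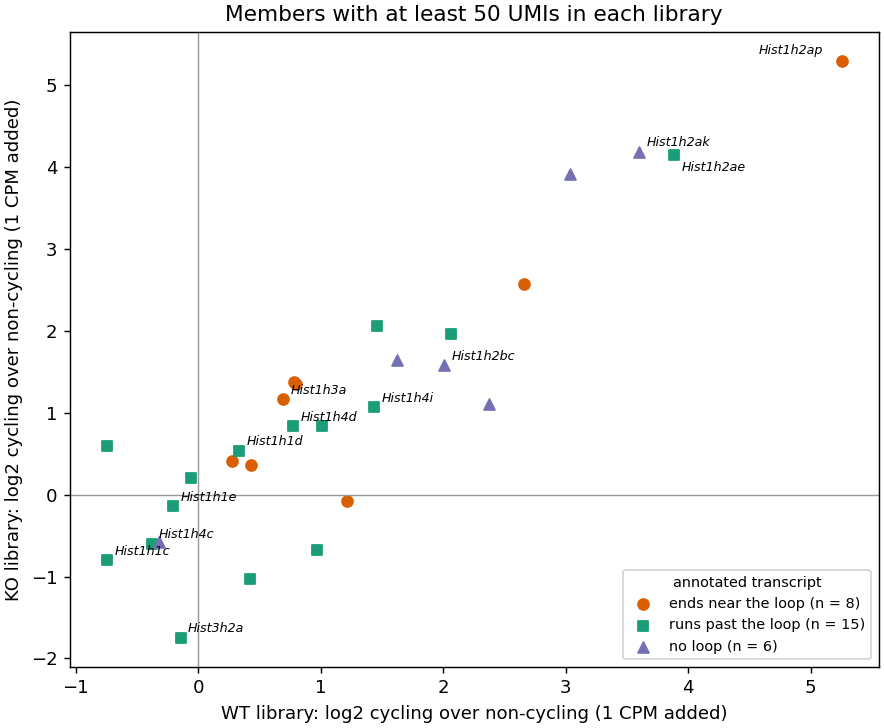
Log2 ratio of cycling over non-cycling cells in the WT (x axis) and KO (y axis) library for the 29 members with at least 50 UMIs in the classes of each, with 1 CPM added. Colour and shape give the annotated transcript: ending within 100 bases of the loop (circles), running further (squares) or without it (triangles). Hist1h2ap is highest on both axes, and Hist1h1c lies below 0 on both.

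Genes around the histones gave a scale for these differences. Replacement variants are here a list of histone genes outside the clusters, chosen for having poly-A mRNA. How the mRNA of each listed gene ends was not tested. The variants summed to 5430 CPM in KO and 4979 in WT non-cycling cells, far above the clustered members. H3f3b, which encodes the variant H3.3, was the most abundant, at 2748 in KO non-cycling, 2075 in KO cycling, 2263 in WT non-cycling and 2157 in WT cycling cells. H2afz, H3f3a and H2afj followed it by UMIs. The summed log2 ratio of cycling over non-cycling was 0.11 (0.06 to 0.17) in the KO library and 0.40 (0.38 to 0.43) in WT. Of 9 variants measured, 1 in the KO (H2afx) and 2 in the WT library (H2afv and H2afx) were at least 2-fold higher, where 6.67% and 6.19% of all genes were. The KO count is near that share. H2afx, which is phosphorylated at DNA breaks, had log2 ratios of 1.34 and 2.38.

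Genes of histone mRNA processing and transcription and of histone chaperones were read in the same way. Slbp, which encodes the protein that binds the stem-loop, was at 215 CPM in KO non-cycling and 319 in KO cycling cells, and at 166 and 312 in the WT library. In its list of 16, 3 of 15 measured were 2-fold higher in KO cycling cells (Casp8ap2, Cstf2 and Eri1) and 2 of 15 in WT cycling cells (Cpsf2 and Eri1), where 6.67% and 6.19% of all genes were. Cstf2t was 2-fold lower in KO cycling cells (all genes 10.7%). Eri1 encodes a nuclease that trims histone mRNA ends. Among 14 chaperones, which carry histones to DNA, 4 of 13 in the KO library (Asf1b, Chaf1b, Nap1l1 and Nasp) and 7 of 14 in the WT library were 2-fold higher. Asf1b had log2 ratios of 4.41 and 4.28 and Chaf1b 2.85 and 2.84. In non-cycling cells the summed log2 ratio of KO over WT was 0.13 for the variants, 0.19 for processing genes and -0.07 for chaperones, against -0.33 for the clustered members.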

How the data were processed

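The authors deposited 1 table of UMI counts per gene and cell for each library, which per the file values are whole numbers and not normalized. The submitters' processing notes list Cell Ranger 2.0.2, Seurat and mm10 and give no role for them. The annotation, the calling of cells, the handling of multi-mapped reads and any doublet removal were not stated there. Doublets were kept and no caller was run. From the counts, cells with 500 or more genes and no more than 10% mitochondrial UMIs were kept. They were thinned to 2500 UMIs with a fixed seed and classed at 5 of 48 cell-cycle genes. UMIs were summed over each class and scaled to CPM (per 1e+06 UMIs). Ratios carry exact conditional binomial 95% intervals, levels exact Poisson and shares exact Clopper-Pearson ones. Calls need 50 UMIs and a 2-fold difference with 1 CPM added. No test was made. Intervals and 2-fold calls of single genes were tried on simulated Poisson counts, for which the intervals are built. The simulation held no gathering of UMIs in few cells, so it does not check the intervals for that. The 12 members with the most UMIs are given per class, other members with at least 50 UMIs by name, and of the other lists the 4 genes with the most UMIs or those past 2-fold. Members and lists were chosen with earlier results of these data known. Alternatives changed the cell filters, the class rule, thinning, scaling, added value and minimum. Python 3.11.15, numpy 2.4.6, scipy 1.17.1, pandas 2.3.3 and matplotlib 3.10.9 were used.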

Additional observations from a re-analysis of the deposited data

How the results depend on the processing

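No paired analysis was possible because each genotype had 1 library and the labels carry no replicate numbers. Alternatives on leaving out Hist1h2ap or the 10 cells with the most member UMIs, and all those on S-leaning cells, were chosen after seeing the data. The 10 cells were picked by the value measured and were a larger share of KO than of WT cycling cells. Under the alternatives, 97 summary values stayed within their interval or within 1.5 times the count, 46 moved and 2 turned sign. Where values moved, the cause was not tested.

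The log2 ratio of all members, cycling over non-cycling, was 0.83 in the KO library and 2.35 in WT without the 3% of cells with the most UMIs, 0.77 and 1.48 with cycling set at 3 genes, 2.25 and 2.56 at 8 genes, and 1.36 and 1.96 by Mki67 or Top2a. It was 1.23 and 1.28 without Hist1h2ap, and 0.47 and 1.93 without the 10 cells with the most member UMIs. The WT ratio was 2.30 without Cd3-carrying cells, 2.64 with thinning to 1500 UMIs and 2.29 with another seed. Members 2-fold higher in KO cycling cells numbered 7 of 27 measured without the 3% of cells (all genes 9.6%), 7 of 29 at 3 genes (1.48%) and 2 of 7 with a minimum of 200 UMIs (4.54%). In WT cycling cells they numbered 37 of 57 at a minimum of 20 (all genes 6.88%) and 11 of 20 at 200 (4.4%), so that the number measured moved too.

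The KO ratio of S-leaning over G2/M-leaning cells, from 7 G2/M-leaning cells, turned to 3.23 without the 3% of cells and to 0.41 by Mki67 or Top2a. It was -1.48 at 3 genes, -0.65 at 8, -0.62 with thinning to 1500 and -1.39 with another seed. The WT ratio was -1.09 without the 3% of cells, -1.18 without Cd3-carrying cells, -1.37 at 3 genes, -0.23 at 8, -0.044 by Mki67 or Top2a, -0.43 with thinning to 1500 and -0.59 without the 10 top cells.

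The log2 ratio of KO over WT in all kept cells was -0.56 without the 3% of cells, -0.69 without ribosomal protein and mitochondrial genes in the total, and -0.38 without Hist1h2ap. In cycling cells it was -1.82 without the 3% of cells, -1.04 at 3 genes, -1.04 by Mki67 or Top2a, -1.04 with thinning to 1500, -0.80 with another seed, -0.34 without Hist1h2ap and -1.80 without the 10 top cells. In non-cycling cells it was -0.44 by Mki67 or Top2a and -0.24 with thinning to 1500. The 1 member higher in the KO library, Hist1h4m, fell from the count, to 0, with at least 1000 detected genes, without the 3% of cells and at a minimum of 200 UMIs. Its log2 ratio stayed between 4.05 and 5.02 over its 7 alternatives, and its 51 UMIs lie at the minimum of 50, so that the call was lost through the minimum. The number of cells limits the KO cycling class, with 976 member UMIs in 51 cells, of which 7 G2/M-leaning cells held 268.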
